A study of Mus musculus with 8 samples.

Results

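Among the 862 small RNA names listed over the 8 libraries, 39 carried no miRNA name and were numbered by the submitters with the prefix novel_, and 823 carried a mouse miRNA name. These 39 names were described here, each standing for 1 short sequence, and they were chosen by their prefix alone, without regard to their levels. The mice were male C57BL/6J wild types (WT), housed singly and 8 weeks old, that either ate freely for 12 weeks (ad libitum, AL) or were calorie restricted (CR), by 20% in the first week and by 40% in the other 11 weeks. The 2 whole-liver libraries, 1 for each diet, were each made from 3 RNA samples pooled in equal amounts. The 6 mitochondrial libraries, 3 for each diet, were made from mitoplasts, mitochondria stripped of their outer membrane, isolated by differential centrifugation. No label ties a mitochondrial library to an animal, so that the p-values reflect the spread among these libraries, which may be technical.

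A microRNA is cut from a hairpin RNA and acts in the Argonaute protein, where the bases from the second to the eighth, the seed, pair with target mRNAs. Programs that look for unlisted miRNAs in sequencing reads propose short sequences that map to the genome and could lie in a hairpin, and pieces of tRNA, rRNA or mRNA can enter such lists. How the submitters arrived at these names is not given in the sources used here. Mitochondria hold a small genome of their own, which encodes rRNAs, tRNAs and a few proteins of the respiratory chain, while miRNAs are encoded in the nucleus.

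The most abundant unannotated names, those with at least 20 reads over the 8 libraries, are shown first with novel_331, since the comparisons rest on them, each 5′ to 3′ with its seed (bases 2 to 8) in capitals.
novel_78: aAAUACCAcuacucucauc
novel_192: cAGUCUCUucgggggcguggguuc
novel_353: aCAUUGGCaacagaccugacu
novel_226: aAUUAGGCucuggaucuguga
novel_315: aGGGGGUGggggguuugga
novel_190: uGAGGGACcaggaaugccugugc
novel_314: uUGGGGGGcggggcggacu
novel_368: uAACGUGUgaguguguguuuu
novel_251: aCCAGGAGuggagccugcu
novel_241: uACUAUGCcuggaaggcac
novel_331: uAAGAUGAguaggccugg
The 39 names had 39 distinct seeds, so no pair of them formed a seed family. Only 3 shared a seed with an annotated name: novel_344 with miR-122-5p, novel_381 with miR-7688-5p and novel_371 with miR-3535. The sequences of novel_315 and novel_314 were rich in G (68.4% and 63.2% of their bases), and novel_78 held no G.

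The unannotated names were short. Of the 39, 28 (71.8%) were 18 or 19 nucleotides long, against 19 (2.31%) of the 823 annotated names, and the medians were 19 and 22 nucleotides. Most annotated names had the usual miRNA length of 21 to 24 nucleotides (762, 92.6%), as did 8 (20.5%) of the unannotated names. The gap was of the same order among rare names. Among names with under 20 reads, 23 of 29 unannotated (79.3%) and 13 of 456 annotated names (2.85%) had 18 or 19 nucleotides. A first base of U, the base that heads many miRNAs, was present in 13 unannotated names (33.3%) and in 347 annotated names (42.2%). A final GCU was present in 6 unannotated names (15.4%) and in 18 annotated ones (2.19%), and G made up more than 40% of the bases in 11 (28.2%) and 96 (11.7%).

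**Figure D1:**
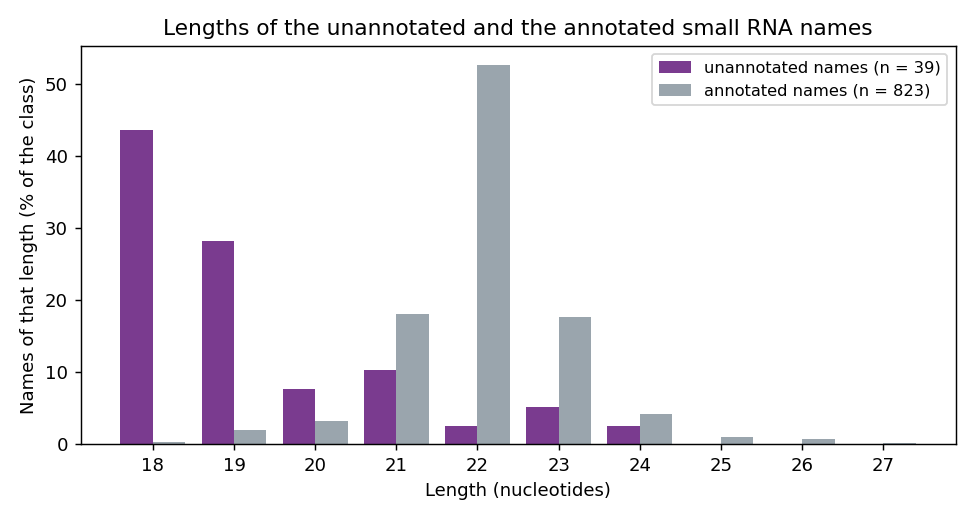
Percentage of the 39 unannotated and of the 823 annotated names (vertical axis) at each length in nucleotides (horizontal axis). The unannotated names peak at 18 nucleotides (43.6%), and the annotated names at 22 (52.6%).

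Each sequence was searched in the miRNA table of RefSeq (GRCm38.p6) and in the transcripts of GENCODE M21 (GRCm38), as a description of where its letters occur and not of where the reads arose. The submitters mapped to mm9, so every position below is a match in GRCm38 made here. Mature miRNAs of the RefSeq table shared 19 to 21 bases in a row with 4 of the 39 names, shown with seeds in capitals.
novel_226: aAUUAGGCucuggaucuguga
miR-12182-3p: uAAUUAGGcucuggaucuguga
novel_241: uACUAUGCcuggaaggcac
miR-12206-5p: uACUAUGCcuggaaggcacca
novel_239: uACUGUGCcucucuguuuucaga
miR-7043-3p: aCUGUGCCucucuguuuucag
novel_151: uUGGUUUUccuguuugcacagg
miR-7065-3p: uUGGUUUUccuguuugcacag
The sequence of novel_226 was miR-12182-3p without its first base, which moves the seed by 1 base. The 55-base hairpin of this miRNA (gene Gm51288, chr11:86852604-86852658, minus strand) is given with the bases of novel_226 in capitals.
Gm51288 hairpin: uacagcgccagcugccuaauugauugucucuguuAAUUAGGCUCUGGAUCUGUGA
The 19 bases of novel_241 were the first 19 of miR-12206-5p (chr9:108459094-108459114, plus strand), and their seeds were the same. The first 18 of them also lay in mt-Nd4l, a mitochondrial gene for a subunit of respiratory complex I (chrM:9965-9982). They lay as well in Gm10222, a nuclear pseudogene (chr1:24612595-24612612, minus strand). Both differ from miR-12206-5p for this read by its last base only. The sequence of novel_239 was miR-7043-3p (chr6:116645978-116645998, minus strand) with 1 further base at each end, and miR-7043-3p itself was among the listed names. The sequence of novel_151 was miR-7065-3p (chr8:13136112-13136132, plus strand) with 1 further base at the 3′ end.

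A nuclear tRNA gene held novel_192. All 24 bases lay at chr7:120917558-120917581 on the plus strand, inside the RefSeq gene n-TLaag4 (chr7:120917517-120917598), a leucine tRNA with the anticodon AAG, where they were bases 42 to 65 of 82. That match was found because the tRNA gene lies within the promoter window of Polr3e, 220 bases before the start of this gene for a subunit of RNA polymerase III. Nuclear rRNA was searched only as far as GENCODE M21 annotates it, and most other nuclear tRNA genes were not searched.

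Mitochondrial transcripts shared a stretch of at least 12 bases, in the sense direction, with 8 of the 39 unannotated names (20.5%) and with 12 of the 823 annotated names (1.46%). In the antisense direction 1 unannotated name (2.56%) and 9 annotated names (1.09%) did so, and with at least 14 bases in the sense direction the counts were 6 (15.4%) and 2 (0.243%). The 8 are shown with the shared bases in capitals.
novel_89: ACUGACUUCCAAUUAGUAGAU
novel_241: UACUAUGCCUGGAAGGCAc
novel_371: AGGAUAUGAGAUUGGuuuc
novel_389: auuGAUGUAGGAUGAAGc
novel_297: AGAUGUAGGAUGgagucc
novel_350: uaagUGGAGGCUUUGGAAu
novel_217: UGGAGGCUUUGGAgacugga
novel_331: uaagAUGAGUAGGCCUGG
The whole of novel_89 lay in mt-Tg, the mitochondrial tRNA for glycine (chrM:9414-9434). The first 15 bases of novel_371 lay in mt-Ts1, a mitochondrial tRNA for serine (chrM:6911-6925, minus strand). The stretches of novel_389 and novel_297 overlapped in mt-Ta, the tRNA for alanine (chrM:5032-5045 and chrM:5035-5046, minus strand). Those of novel_350 and novel_217 began at the same base of mt-Co1, the gene for subunit I of cytochrome c oxidase (chrM:5552). The stretch of novel_331 lay in mt-Nd2, a complex I subunit gene (chrM:4000-4013). With 1 mismatch allowed over its 18 bases, novel_297 matched the nuclear mRNA Ybx3, and novel_331 matched mt-Nd2 and the nuclear genes Olfr764-ps1 and Olfr766-ps1, so their source is uncertain. Of the 8 names only novel_89 matched a mitochondrial transcript over its whole length, and with a minimum of 16 bases only novel_89 and novel_241 remained.

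Nuclear mRNAs held the first 16 bases, in the sense direction, of 12 unannotated names, which had 2 to 13 reads each and 55 in all. Annotated names were not searched in this way, so no share of them is given. Several of the 12, picked by hand because their mRNAs are known to be abundant in hepatocytes, are shown with the matched bases in capitals. The other 4, with the match to the Serpina1 genes, are named after them, so the display does not measure which mRNAs prevail.
novel_299: GAGGCUGUAUUUCAGGCU
novel_339: AAGUCUGUGCAGGAGCUUUG
novel_342: CUUGCCAAGUACAUGUGUu
novel_378: AAGGACUUUAAGCUGAGCa
novel_261: CAGGAUGCUGGUCUGGCu
novel_268: GAUGUGGCUGUGAGUGcu
novel_230: ACUGGCUAUGGCUCUGCu
novel_242: GUGCUGUGACACUCAGGgg
The whole of novel_299 lay in the kininogen genes Kng2 (chr16:23028802-23028819, coding exon 1) and Kng1, which share this stretch. The whole of novel_339 lay in the 3′ UTR of Ugt2b35, a glucuronosyltransferase (chr5:87012105-87012124). Matching bases of novel_342 lay in coding exon 8 of Alb, serum albumin (chr5:90468487-90468504). Complement C4b was matched at separate sites by novel_378 (exon 2), novel_261 (exon 15) and novel_268, the last across the junction of exons 20 and 21. The copy C4a holds the same bases as C4b for novel_378 and novel_261. Coding exon 5 of Adh1, an alcohol dehydrogenase, was matched by novel_230 (chr3:138282802-138282818), and exon 9 of Gc, the vitamin D binding protein, by novel_242 (chr5:89435545-89435561). At full length novel_230 matched inside Egfem1 (chr3:29081697-29081714) and not in Adh1, so its source is uncertain. The other 4 matched the Serpina1 genes and Pkd1 (novel_381), Plcb2 (novel_208), Olfr90 (novel_295) or Npbwr1 and other genes (novel_372). In the antisense direction the first 16 bases of novel_295 also lay in CT010467.1, annotated as an rRNA.

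Matches to annotated transcripts often ended just before the 3′ end of the read. Over all 39 names, 3 (novel_89, novel_299 and novel_339) matched a transcript in the sense direction at full length and 0 did so in the antisense direction. With 1 mismatch allowed, 16 matched sense and 10 antisense, and in 9 of the 13 sense names with 1 mismatch it fell in the last 2 bases, against 3 of 10 antisense. The first 16 bases were found sense for 19 names and antisense for 10, and the first 17 for 12 and 2.

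Of the remaining names, novel_251 and novel_347 lay with their first 18 and 16 bases in Gm42418, annotated as a lincRNA (chr17:39847576-39847593 and chr17:39847642-39847657). In the antisense direction the same bases lay in CT010467.1, annotated as an rRNA, and in the lincRNA AY036118. A stretch of at least 14 bases of another small RNA was found in 4 names: novel_368 (Mir574), novel_222 (Mir6240), novel_269 (a miscellaneous RNA) and novel_344, whose first 14 bases are those of miR-122-5p, the most abundant hepatocyte miRNA. No match by these rules was found for 9 names, among them novel_78, novel_353, novel_315, novel_190 and novel_314.

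The unannotated names were rare. Their levels are given in RPM, reads per 1000000 on listed names in a library, and the reads behind them were recovered as whole numbers. In all, 1582 reads fell on the 39 names, of 13123767 on all names, and novel_78 (654 reads) and novel_192 (454) together took 70.0% of them. Another 8 names had at least 20 reads, and the other 29 had 1 to 13 reads each, 140 in all, with no more than 6 in any library. The summed level of the 39 names was 154 RPM in the AL pool and 118 RPM in the CR pool. It was 108, 95.9 and 96.3 RPM in the AL mitochondrial libraries (100.1 ± 6.87 RPM, SD, n = 3) and 108, 101 and 167 RPM in the CR ones (125 ± 36.4, SD, n = 3). Without novel_78 the pools fell to 21.4 and 30.2 RPM, below all 6 mitochondrial libraries, whose means became 88.9 ± 9.05 (AL) and 122 ± 38.9 RPM (CR).

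The libraries held 2431564 (AL) and 3242002 reads (CR) in the pools and 1070762 to 1577691 in mitochondria, so 1 read was worth 0.308 to 0.934 RPM. A name at 0 in both pools can have had up to 0.529 RPM there (3 reads of the 5673566 in both), for counting error only. Markers of hepatocytes, such as miR-122 and miR-192, summed to 476035 to 720826 RPM in every library. Markers of leukocytes and Kupffer cells, a list of 10 names of which 7 to 9 were above 0 in a library, differed between the groups: the sum was 1033 RPM in the AL pool, 714 RPM in the CR pool, 8035 to 11013 RPM in AL mitochondria and 2962 to 4842 RPM in CR mitochondria. This came from miR-146a-5p, since the other 9 names summed to 403 and 324 RPM in the pools, and in mitochondria to between 199 and 426 RPM, and miR-155-3p was at 0 in all 6 mitochondrial libraries. Markers of stellate cells and fibroblasts (8 names) summed to 14666 and 15853 RPM in the pools, and in mitochondria to between 25647 and 47440 RPM. The rise lay mainly in miR-143-3p. Its level was 11712 RPM (AL pool), 13104 RPM (CR pool) and 24373 RPM or more in each mitochondrial library. By contrast, miR-145a-5p, miR-145a-3p and miR-199a-5p were lower in all 6 mitochondrial libraries than in either pool. The mitochondrial level of miR-199a-3p lay above both pools under AL and below both under CR. For miR-143-5p, miR-214-3p and miR-214-5p the fractions overlapped. Markers of endothelium (2 names of miR-126a) summed to 19607 and 14978 RPM in the pools, and in mitochondria to between 6694 and 18066 RPM, where only CR mitochondria 2 was above 9437 RPM. Bile duct markers (10 names) summed to 908 and 992 RPM in the pools, and in mitochondria to between 300.5 and 640.2 RPM. The part of these markers in the comparisons below was not tested.

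Most of the rare unannotated names were listed only in mitochondria, which had 6 libraries and 7450201 reads in all, against 2 libraries and 5673566 reads for the pools. The annotated names, read in the same libraries, are given beside them. Of the 39 names 23 (59.0%) had reads only in mitochondrial libraries, 3 (novel_239, novel_208 and novel_151) only in pools and 13 in both. Of the 823 annotated names 138 (16.8%) were listed only in mitochondrial libraries. Among names with under 20 reads the counts were 22 of 29 unannotated (75.9%) and 137 of 456 annotated (30.0%), and those listed only in pools were 3 (10.3%) and 125 (27.4%). Each pool listed 10 (AL) or 15 (CR) of the 39, and each mitochondrial library 15 to 25.

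Sorted by the transcripts they match, the names divided unevenly over the libraries. The 7 names with a mitochondrial stretch other than novel_241 had 36 reads, and 0 of these were in the pools, as with the 26 reads of the 6 names other than novel_297. They had 4, 5 and 11 reads in the AL mitochondrial libraries and 6, 5 and 5 reads in the CR ones, or 3.17 to 7.73 RPM in a library. The 12 names with the start of a nuclear mRNA had 5 reads in the pools and 50 in mitochondria. This was near the division of all 29 unannotated names with under 20 reads, these 12 included. Those 29 had 5 and 11 of their 140 reads in the AL and CR pools. Of the 12 names 9 had no read in the pools, against 22 of the 29 (75.9%), so nothing particular to this set is read from it. These mRNA-matching names reached 0 and 1.54 RPM in the AL and CR pools, 5.54, 1.83 and 9.84 RPM in AL mitochondria and 8.33, 4.44 and 10.3 RPM in CR mitochondria. The 2 names in Gm42418 went the other way, with 26 reads in the pools (2.47 and 6.17 RPM) and 4 in mitochondria. Their matched bases also lay antisense in an annotated rRNA. The 4 names of RefSeq miRNAs had 36 reads in the pools and 39 in mitochondria.

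**Figure D2:**
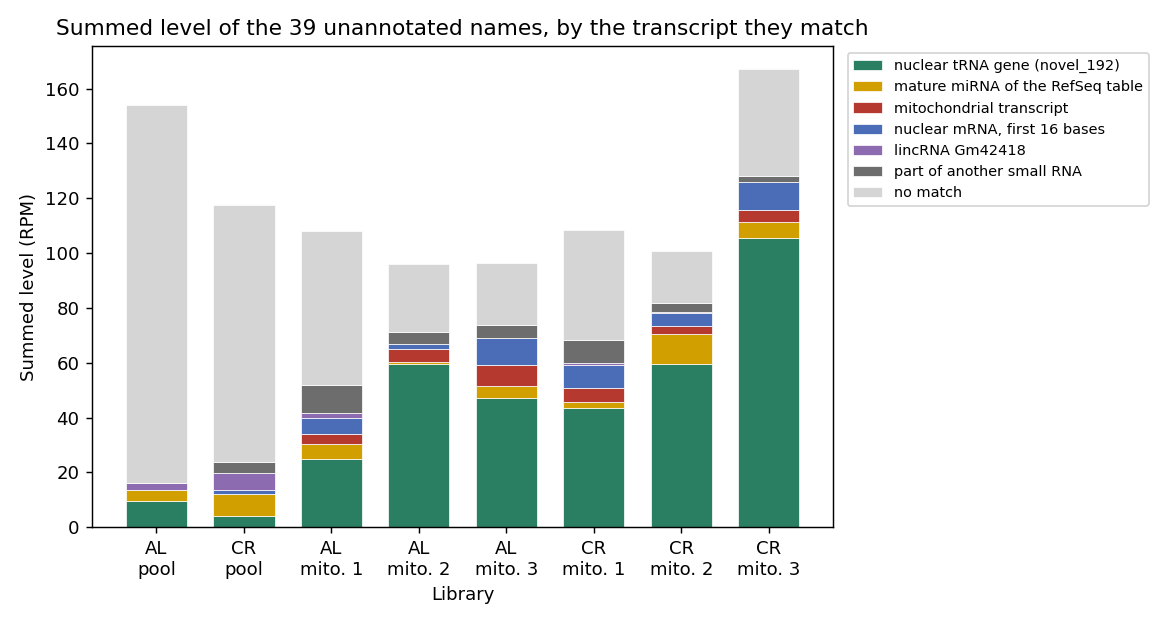
Summed level in RPM (vertical axis) of the 39 unannotated names in each of the 8 libraries (horizontal axis), stacked by the transcript that their sequences match, with novel_241 counted as a mature miRNA. The unmatched names, mainly novel_78, fill most of both pools, and novel_192 in a nuclear tRNA gene takes the largest single share in the mitochondrial libraries other than AL mitochondria 1.

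The comparison of mitochondria with whole liver asked which of the names differ in level between the organelle's RNA and that of the tissue. The fit used all 8 libraries and a term for diet. It covered the 417 names that reached 1 RPM in 3 or more libraries, 12 of them unannotated. The other 27 unannotated names did not reach 1 RPM in 3 libraries. A name found only in the 2 pools could not reach it, while 6 of the 12 (novel_315, novel_314, novel_241, novel_230, novel_331 and novel_378) reached it through mitochondrial libraries alone. These 6 could hardly be called other than higher in mitochondria, so the balance of directions among the 12 is set in part by the filter and nothing is read from it. Of the 417 names 134 passed an adjusted p of 0.05 (32.1%), 44 higher in mitochondria (10.6%) and 90 lower (21.6%). Of the 12 unannotated names tested, 4 rose in mitochondria (novel_192, novel_315, novel_353 and novel_314), 1 fell (novel_78) and 7 did not pass. Over all 417 names the median difference was -0.31 on the log2 scale, and with TMM factors it was 0.0055. The calls then numbered 75 higher and 67 lower, against 62 and 72 with DESeq2 size factors and 65 and 63 without miR-122. All 5 unannotated names called kept their call and direction under these 3 scalings. Unannotated names called higher numbered 7 by edgeR and 8 by limma-voom, which called 97 (23.3%) and 103 (24.7%) of the 417 names higher. The unannotated names so added were all among the 6 that reached the filter through mitochondrial libraries alone, so nothing is read from these counts.

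The tRNA-matching novel_192 was higher in mitochondria. Its level was 9.46 RPM in the AL pool and 4.01 in the CR pool. In AL mitochondria it was 24.9, 59.4 and 47.1 RPM (43.8 ± 17.5, SD, n = 3), and in CR mitochondria 43.3, 59.6 and 106 RPM (69.5 ± 32.3, SD, n = 3). All 6 mitochondrial libraries lay above both pools, as did those of 14.9% of the 417 names. The difference was 2.87 on the log2(RPM + 1) scale (SE 0.47), a 7.29-fold rise with an adjusted p of 0.000143 by limma-trend, and it passed without either pool.

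The opposite was shown by novel_78. It had no match in the references searched, which held nuclear rRNA only as far as GENCODE M21 annotates it. Its level was 132 RPM in the AL pool and 87.3 RPM in the CR pool, which made it the most abundant unannotated name there (86.1% of their reads in the AL pool). In mitochondria it was 29.5, 1.83 and 2.11 RPM under AL (11.2 ± 15.9, SD, n = 3) and 7.49, 1.90 and 0 RPM under CR (3.13 ± 3.90, SD, n = 3). All mitochondrial libraries lay below both pools, as did those of 27.1% of the 417 names, and AL mitochondria 1 stood well above the other 5. The level fell by 4.65 on the log2 scale (SE 0.79, adjusted p = 0.000170 by limma-trend), and the fall passed without either pool.

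The G-rich novel_315 had no read in either pool. Its level in mitochondria was 10.2, 16.4 and 6.33 RPM under AL and 0, 3.80 and 4.67 RPM under CR. Over the summed reads this was at least 12.4-fold higher in mitochondria, taking 3 reads over both pools as the floor, and the fitted difference was 2.54 (SE 0.67, adjusted p = 0.00622 by limma-trend). The G-rich novel_314 had 0 and 0.925 RPM in the AL and CR pools, 2.77, 1.83 and 3.52 RPM in AL mitochondria and 3.33, 1.90 and 10.3 RPM in CR mitochondria, with every mitochondrial library above both pools. Its difference was 1.65 (SE 0.57, adjusted p = 0.0337 by limma-trend). Both G-rich names reached the filter through mitochondrial libraries alone, so they could hardly be called other than higher there.

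The unmatched novel_353 had 0.823 and 3.08 RPM in the AL and CR pools. In mitochondria it had 6.46, 1.83 and 6.33 RPM under AL and 26.6, 8.24 and 21.5 RPM under CR, and AL mitochondria 2 lay between the pools. Its difference was 1.85 (SE 0.55, adjusted p = 0.0135 by limma-trend). These smaller rises rest on single libraries: without the AL pool the adjusted p was 0.300 for novel_315, 0.301 for novel_314 and 0.0787 for novel_353. Without the CR pool it was 0.164 for novel_314 and 0.219 for novel_353, and for novel_314 it was 0.0595 without AL mitochondria 3 and 0.0745 without CR mitochondria 3.

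The 2 tested names that match a RefSeq miRNA did not pass this comparison by limma-trend. The level of novel_226 (miR-12182-3p) was 2.06 and 7.09 RPM in the AL and CR pools, 0.923, 0 and 0.703 RPM in AL mitochondria and 1.67, 8.24 and 4.67 RPM in CR mitochondria, so that both fractions overlapped (log2 difference -0.84, SE 0.57, adjusted p = 0.272 by limma-trend). The level of novel_241 (miR-12206-5p, mt-Nd4l or Gm10222) was 0.411 RPM in the AL pool and 0.617 RPM in the CR pool. In mitochondria it ranged from 0.833 to 4.62 RPM, with all mitochondrial libraries above both pools (log2 difference 0.95, SE 0.58, adjusted p = 0.224 by limma-trend). By limma-voom novel_241 was called higher in mitochondria (log2 difference 2.18, adjusted p = 0.0364), but it reached the filter through mitochondrial libraries alone. The unmatched novel_190 was near even, at 4.52 and 2.16 RPM in the AL and CR pools and 0.833 to 2.81 RPM in mitochondria. The level of novel_251, in Gm42418, was 2.06 and 4.94 RPM in the AL and CR pools and 0 RPM in 5 of 6 mitochondrial libraries, with 1 read in CR mitochondria 1. It was left out of the test because it reached 1 RPM in the 2 pools only. The ratio of its summed levels, pools over mitochondria, was 27.6 with an exact 95% Clopper-Pearson interval of 4.44 to 1140, for counting error only. With no filter on low values it was lower in mitochondria (log2 difference -1.94, adjusted p = 0.00776 by limma-trend). That unfiltered fit also called novel_239, with 4 reads in all, lower (adjusted p = 0.0221 by limma-trend), so nothing is read from its calls.

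**Figure D3:**
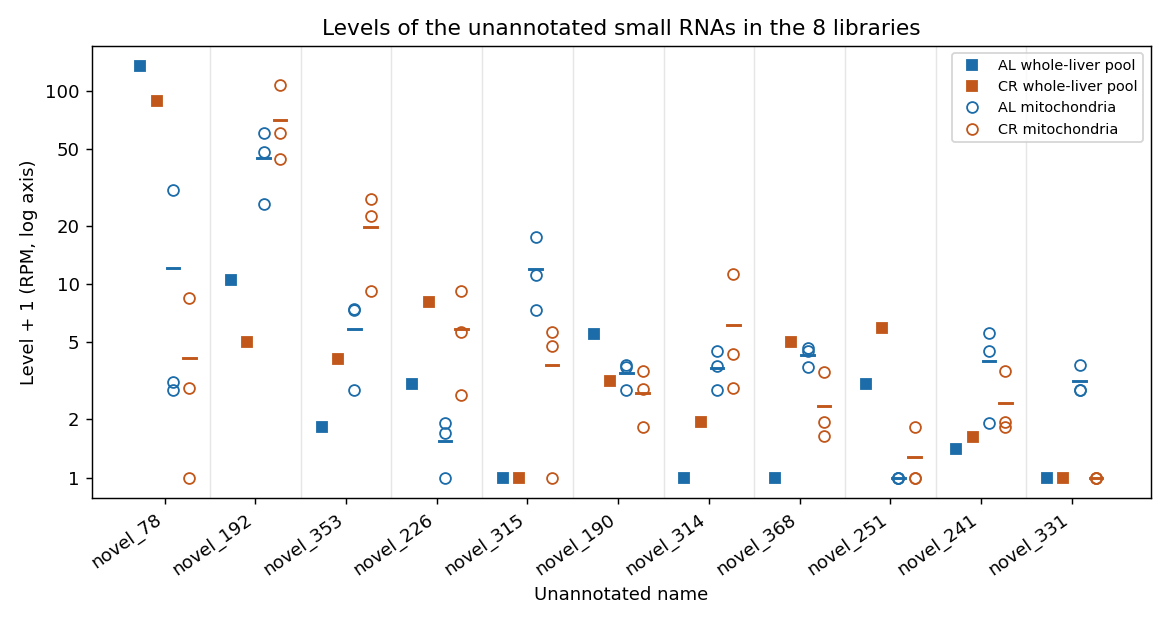
Level plus 1 in RPM on a log axis of the 10 unannotated names with at least 20 reads and of novel_331, in each library; filled squares are the whole-liver pools, open circles the mitochondrial libraries, and short bars the group means. The circles of novel_192 lie above both its squares, those of novel_78 below, and those of novel_353 and novel_226 lie higher under CR (orange) than under AL (blue).

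The diet comparison within mitochondria asked which names differ between CR and AL mice in the organelle, with 3 libraries per group. Of the 417 names 2 passed an adjusted p of 0.05 by limma-trend (0.48%), 1 higher under CR (0.24%) and 1 lower (0.24%), and 0 of the 12 unannotated names tested did. At an unadjusted p of 0.05 the counts were 53 names (12.7%), 4 of them unannotated (novel_353, novel_315, novel_226 and novel_331). The edgeR quasi-likelihood test and DESeq2 on the recovered reads each called 1 unannotated name higher, novel_353, among 8 (1.92%) and 7 (1.68%) of the 417 names called higher. The median difference was -0.24 over the 12 and -0.17 over all 417.

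The CR libraries lay above all AL libraries for novel_353 and novel_226, a pattern shown by 5.04% of the 417 names. For novel_353 the means were 18.8 ± 9.49 RPM under CR and 4.87 ± 2.64 RPM under AL (SD, n = 3 each). The difference was 1.74 on the log2(RPM + 1) scale (SE 0.55), with an adjusted p of 0.143 by limma-trend, 0.0364 by edgeR and 0.0421 by DESeq2. In the pools its ratio of CR to AL was 3.75 (10 reads against 2), with an exact 95% Clopper-Pearson interval of 0.799 to 35.2 for counting error. For novel_226, whose sequence lies in miR-12182-3p, the means were 4.86 ± 3.29 RPM under CR and 0.542 ± 0.482 RPM under AL (SD, n = 3 each). The difference was 1.80 (SE 0.61, adjusted p = 0.176 by limma-trend). Outside the 2 pools it reached 1 RPM in CR libraries alone, so its entry into the test rested in part on its CR level. In the pools its ratio of CR to AL was 3.45 (23 reads against 5, interval 1.28 to 11.6).

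The CR libraries lay below all AL libraries for novel_315, novel_331 and novel_368, a pattern shown by 13.9% of the 417 names. For novel_315 the means were 2.82 ± 2.48 RPM under CR and 11.0 ± 5.10 RPM under AL (SD, n = 3 each), and the difference was -1.90 (SE 0.64, adjusted p = 0.176 by limma-trend). The reads of novel_331, which shares a stretch with mt-Nd2, were 2, 2 and 4 in AL mitochondria and 0 in each of the 3 CR mitochondrial libraries and both pools (log2 difference -1.65, SE 0.59, adjusted p = 0.205 by limma-trend). It passed the filter on low values through the AL libraries alone, so that it could only be lower under CR. For novel_368 the levels were 3.69, 2.74 and 3.52 RPM under AL and 2.50, 0.634 and 0.934 RPM under CR (log2 difference -0.95, SE 0.57, adjusted p = 0.522 by limma-trend).

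The most abundant names showed no difference past the threshold. For novel_192 the difference was 0.64 (SE 0.43, adjusted p = 0.563 by limma-trend), and the AL and CR libraries overlapped. For novel_78 it was -1.15 (SE 0.84, adjusted p = 0.603), with AL mitochondria 1 and CR mitochondria 3 at the extremes of 29.5 and 0 RPM. The other 5 tested names (novel_314, novel_190, novel_241, novel_230 and novel_378) had adjusted p-values of 0.716 to 0.971 by limma-trend.

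**Figure D4:**
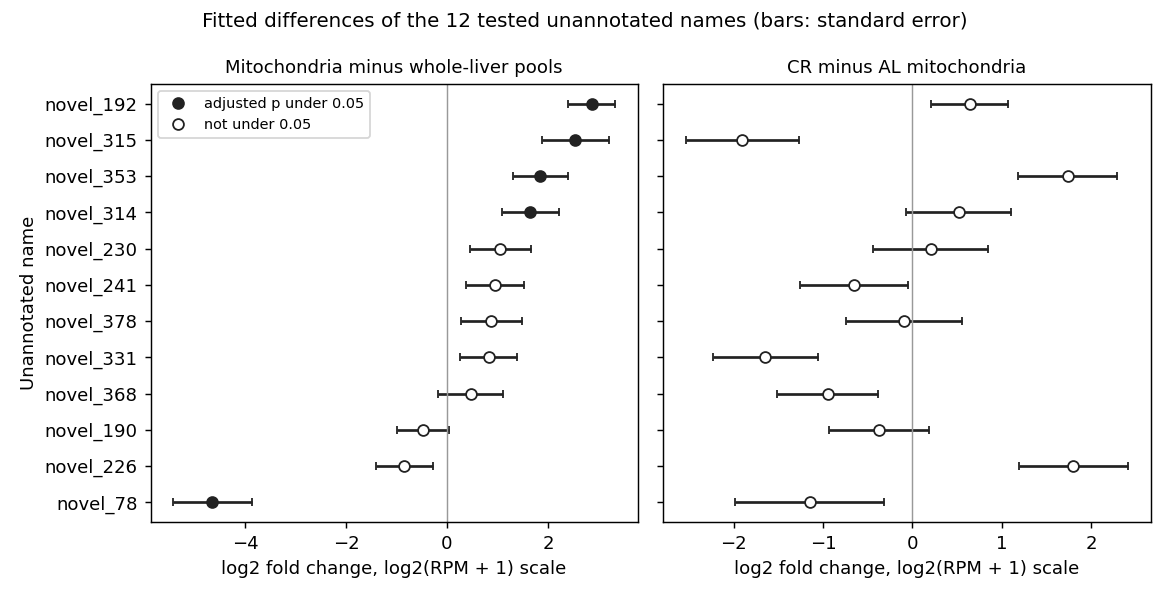
Fitted difference on the log2(RPM + 1) scale (horizontal axes, bars: standard error) of the 12 unannotated names tested, for mitochondria minus whole-liver pools (left) and CR minus AL mitochondria (right); filled points passed an adjusted p of 0.05. At left novel_192, novel_315, novel_353 and novel_314 lie above 0 and novel_78 below with filled points, and at right every point is open.

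Whole liver had 1 pool per diet, so its diet ratios have no replicate check and their intervals cover counting error only. The level of novel_78 was 0.659 times as high in the CR pool as in the AL pool (283 reads against 322, exact 95% Clopper-Pearson interval 0.560 to 0.776). For novel_192 the ratio was 0.424 (13 reads against 23, interval 0.197 to 0.873), while its mitochondrial means were higher under CR than under AL. The level of novel_368 was 4.01 RPM in the CR pool (13 reads) and 0 in the AL pool, at least 3.25-fold higher with 3 reads as the floor, while in mitochondria all CR libraries lay below all AL libraries. For novel_251 the ratio was 2.40 (16 reads against 5, interval 0.840 to 8.38). Whether the diet difference depended on the fraction was tested by the interaction of both. By limma-trend 0 of 417 names passed an adjusted p of 0.05, and 5 (1.2%) had an unadjusted p under 0.05. edgeR, DESeq2 and limma-voom also called 0. Of the 12 unannotated names only novel_368 was among the 5 (difference of differences -3.27, SE 1.13), and its adjusted p was 0.998 by limma-trend.

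Annotated names related to the unannotated ones were compared in the same fits. Of those that share a seed, miR-122-5p passed neither comparison (diet 0.04, fraction 0.70), miR-3535 was lower in mitochondria (-1.05, adjusted p = 0.0413 by limma-trend) and miR-7688-5p, with 2 reads, was not tested. The near-identical partner of novel_239, miR-7043-3p, had 8 reads and passed neither comparison (diet -0.11, fraction -0.33). Among all names only novel_89 and the annotated miR-6481 lay in a mitochondrial transcript at full length. The latter, in the tRNA for phenylalanine mt-Tf (chrM:29-47), was higher in mitochondria by 5.33 on the log2 scale (adjusted p = 2.52e-06 by limma-trend), and novel_89, with 6 reads in 5 mitochondrial libraries and 0 in the pools, was too rare to be tested.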

How the data were processed

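The deposited values are RPM, reads per 1000000 on listed names, made by the authors after mapping with Bowtie to mm9, per the submitters' processing notes, and names at 0 are left out. How candidates were called, and the mismatches and strand used in counting, are not given in the sources used here. All values were whole multiples of 1 read (100% within 0.01 read), which gave reads and depths; counting alone limits low names. All 8 libraries were used, grouped by their labels.

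On log2(RPM + 1), names that reached 1 RPM in 3 or more libraries were tested with limma-trend (limma 3.58.1, R 4.3.3; Benjamini-Hochberg over 417 names, threshold 0.05), tested on simulated data first. edgeR 4.0.16, DESeq2 1.42.0 and limma-voom on recovered reads, other pseudocounts, filters and scalings were alternatives. Named were names past 0.05, with at least 20 reads, or among the 5 smallest p; other names were added after their values were seen. Sequences were searched as exact strings in RefSeq and GENCODE M21 (Python 3.11.15, pandas 2.3.3). Ratios of pools have Clopper-Pearson intervals (scipy 1.17.1). The members and lists were chosen with earlier results of these data known. Each name is 1 short sequence, so levels were compared without a length term.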

Additional observations from a re-analysis of the deposited data

How the results depend on the processing

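Over the alternatives run, novel_192 and novel_78 passed in mitochondria against whole liver in all 19, novel_315 in 16 of 18, novel_353 in 15 of 18 and novel_314 in 12 of 18. Unannotated names called higher there numbered 4, and 1 with no filter on low values, 1 with a filter of 10 RPM, 7 by edgeR (adding novel_230, novel_331 and novel_378; 97 of all 417 names higher and 70 lower), 8 by limma-voom (adding those and novel_241; 103 and 73), 1 without the AL pool and 2 without the CR pool; those called lower numbered 1, and 3 with no filter. The unannotated names added by edgeR and limma-voom had all reached the filter through mitochondrial libraries alone. All names called numbered 134, and 58 to 142 leaving out 1 library each (64 and 58 without the AL and the CR pool). In the diet comparison of mitochondria 2 names were called, and 10 with no filter, 4 with a filter of 10 RPM, 5 with TMM factors, 5 with DESeq2 size factors, 4 without miR-122, 10 by edgeR, 11 by DESeq2, 5 by limma-voom and 0 to 5 leaving out 1 replicate each. Unannotated names called higher numbered 1 by edgeR and 1 by DESeq2, against 0. The interaction of diet and fraction called 129 names with no filter, 2 unannotated ones higher and 2 lower, against 0; the cause was not tested. Leaving out 1 library each, log2 differences that passed no threshold changed sign for novel_314 (diet, -0.037 without CR mitochondria 3 to 0.94), novel_368 (fraction, -1.17 without the AL pool to 2.10), novel_226 (interaction, -0.017 without CR mitochondria 2 to 0.88) and novel_78 (interaction, -1.33 to 0.57 without AL mitochondria 1, and 0.22 without CR mitochondria 3). With a pseudocount of 5 RPM the interaction of novel_314 became 0.075.

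Whether replicate numbers pair the mitochondrial libraries cannot be decided from 3 libraries per group, and the main fit used no pairing. Same-numbered deviations correlated at 0.36, 0.09 and 0.10 and the others at -0.28 to 0.20. Not every library correlated best with its own number. With the replicate block 5 names were called in the diet comparison. Summed levels without novel_78, and without novel_78 and novel_192, were 21.4 and 11.9 RPM in the AL pool, 30.2 and 26.2 in the CR pool and 88.9 and 45.1 in AL mitochondria, and 52.8 RPM in CR mitochondria without both. With 1 mismatch allowed, 16 sense and 10 antisense names matched a transcript, and 2 names had a mitochondrial stretch of at least 16 bases. Matching and folding in the genome were not run. Of the 39 names 29 had under 20 reads, which limits what can be said of each. The fits against the pools assume that 1 pool per diet varies like the mitochondrial libraries.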

Other observations

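The numbers in the unannotated names ran from 78 to 389. Outside the transcripts, 3 further names matched a RefSeq promoter window at full length: novel_101 at chr7:84689606-84689623, inside the gene Zfand6, novel_230 at chr3:29081697-29081714, inside Egfem1, and novel_314 at chr9:53301443-53301461 on the minus strand, 227 bases before the start of Exph5. The last letter of novel_230, which did not match Adh1, matched in that window, so the sequence has a full-length match there and a match of its first 17 bases in Adh1.

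Pancreatic miRNAs (miR-375, miR-217, miR-216a and miR-216b, 5 names) summed to 98.9 RPM in CR mitochondria 2 and to between 2.11 and 6.99 RPM in the other 7 libraries. That library listed 21 unannotated names, at a summed level of 101 RPM, against 95.9 to 167 RPM in the other mitochondrial libraries.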
